A study of Homo sapiens with 3 samples.

Results

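The genes described here are 10 transcription factors and nuclear proteins of the immediate early response: the Fos family (FOS, FOSB, FOSL1, FOSL2), the Jun family (JUN, JUNB, JUND), and EGR1, IER2 and MYC. They were taken by name, as every probe set whose platform annotation gives exactly 1 of these symbols, which found all 10 among 19775 named genes. Together they had 22 of the 41097 probe sets with 1 gene symbol, and 6 of them had a single probe set. Total RNA was profiled on 3 short-oligonucleotide arrays, 1 from each of 3 stably transfected cell lines, which carried a vector for the Hsp27 ORF (open reading frame), a vector for an shRNA against Hsp27, or a control vector. The sample titles are IRES2-HSP27, HSP27-SiRNA and EGFP-NC. All cells were labelled HepG2, a human liver tumour line, and were grown in DMEM with 10% fetal bovine serum. Neither whether each line was a pool or a clone nor the time since the last change of serum is given in the sources used here. With 1 array per group no difference below has a replicate check, and every value describes the arrays and not the conditions.

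AP-1 is a dimer of basic leucine zipper proteins. Fos proteins bind DNA only with a partner, usually a Jun protein, whereas Jun proteins can also pair with each other. Many immediate early genes are transcribed within minutes of serum, growth factor or stress signals, without new protein synthesis: ERK-activated ELK factors act with serum response factor at CArG boxes, and JNK phosphorylates JUN. FOS, JUN, EGR1 and MYC are known for their early induction in the regenerating liver. Hsp27, encoded by HSPB1, is a small heat shock protein phosphorylated downstream of p38, a kinase of the same signalling network.

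The promoters show which of these classical control elements lie close to the members' starts. RefSeq's promoter table (GRCh38.p14) held 8 of the 10 genes, all except FOSL1 and MYC. The 250 bases before each start were searched on both strands for TGANTCA, a loose form of the AP-1 site in which the middle base is free. Also searched were TGACGTCA, the cyclic AMP response element, the wider TGACNTCA, which includes that element, and the CArG box. TGANTCA was in 0 of the 8 promoters, against 6.57% of 35116 promoters of the same length. TGACGTCA was in 1 of 8 (1.65% of all promoters), TGACNTCA in 2 of 8 (6.87%), and the CArG box in 1 of 8 (1.16%). EGR1, JUN and JUND are shown because they hold these matches, and JUNB because it stood highest against control by 1 probe set per gene. Each is written 5′ to 3′ on the gene's strand, with matches in capitals. The regions are chr5:138465229-138465478 (plus strand) for EGR1, chr1:58784048-58784297 (minus) for JUN, chr19:18281623-18281872 (minus) for JUND and chr19:12791236-12791485 (plus) for JUNB.
EGR1: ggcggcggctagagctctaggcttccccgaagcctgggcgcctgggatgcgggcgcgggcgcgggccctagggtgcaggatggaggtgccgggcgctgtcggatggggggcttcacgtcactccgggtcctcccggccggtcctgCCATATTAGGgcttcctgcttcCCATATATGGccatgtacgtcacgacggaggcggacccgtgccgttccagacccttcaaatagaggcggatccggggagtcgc
JUN: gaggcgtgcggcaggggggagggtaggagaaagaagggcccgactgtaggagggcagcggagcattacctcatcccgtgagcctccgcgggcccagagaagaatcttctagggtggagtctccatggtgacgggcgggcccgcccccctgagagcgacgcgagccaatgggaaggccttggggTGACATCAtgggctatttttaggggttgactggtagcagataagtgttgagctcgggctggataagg
JUND: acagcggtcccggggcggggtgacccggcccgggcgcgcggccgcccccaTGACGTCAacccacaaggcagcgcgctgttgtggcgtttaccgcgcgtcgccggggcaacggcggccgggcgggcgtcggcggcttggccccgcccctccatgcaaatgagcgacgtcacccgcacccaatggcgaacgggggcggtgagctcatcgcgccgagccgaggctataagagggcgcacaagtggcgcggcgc
JUNB: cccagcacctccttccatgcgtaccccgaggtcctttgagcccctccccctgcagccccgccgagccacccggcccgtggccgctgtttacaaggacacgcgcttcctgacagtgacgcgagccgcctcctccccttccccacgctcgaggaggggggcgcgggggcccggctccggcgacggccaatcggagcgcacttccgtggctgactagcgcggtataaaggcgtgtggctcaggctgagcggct
Counting the last base before the start as −1, the CArG boxes of EGR1 began at −105 and −83, the match of JUN at −67 and that of JUND at −200. These are matches of letters within 250 bases, and say nothing about elements further from the start or about binding in these cells.

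HSPB1 read 13.11 on the ORF-labelled array, 13.03 on the shRNA-labelled array and 13.25 on the control-labelled array (log2 signal), so the ORF array was not above the control array. Its log2 ratio for shRNA against control was −0.22 (noise SD 0.117), a small difference, and for ORF against shRNA 0.08 (noise SD 0.077). Every direction below therefore rests on the labels. Of the hepatocyte and HepG2 markers, 9 had values, from 2.25 to 6.51, and 1 exceeded the pooled median signal on average. ALB was at most 4.88, TTR at most 5.41 and APOA1 at most 5.83, so the markers that define hepatocytes and HepG2 cells were near background, which goes against the HepG2 label. Their summed linear signal was 306.6, 306.9 and 359.8 in the same array order. In the list of mesenchymal or dedifferentiated epithelial markers, VIM read at least 13.78, S100A4 at least 14.5 and CDH2 at least 11.24. The keratins KRT7 and KRT18 of that list read at least 13.3 and 13.4, and CDH1 at most 6.37. The 5 fibroblast markers summed to 1985, 2319 and 2180 in linear signal, with COL1A1 and DCN bright. The others were below or close to the pooled median signal: THY1 at most 5.40, PDGFRB at most 6.02 and ACTA2 at most 6.30. COL1A1 and DCN differed in opposite directions, at 0.80 (noise SD 0.199) and −0.90 (noise SD 0.215) for shRNA against control and at 0.15 and −0.47 for ORF against control. The 3 leukocyte markers with values summed to 139.3, 82.5 and 55.2, and PTPRC and CD14 were at most 4.18, while CD3E read 6.72, 5.79 and 4.69 (log2 ratio 0.79 for ORF against control, noise SD 0.412). The part of other cell types in the results was not tested.

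A floor was placed at the median signal pooled over probe sets and arrays (log2 5.93, or 60.8 linear), and lower signals were raised to it before any ratio was formed. A signal at or above the pooled 75th percentile (8.63) is called bright. Of the 10 genes, 7 were above the floor on 3 arrays, by the probe set of highest mean signal. EGR1 was above it on 2 arrays, FOSB on 1 and FOS on 0. FOSL1, FOSL2, JUN, JUND, IER2 and MYC were bright on 3 arrays and JUNB on 2. FOS, FOSB and EGR1 thus lay below or close to the floor, while the other members lay well above it. The latter included IER2, which is induced together with FOS and EGR1, so inducibility does not mark this division. The plot of signals by probe set shows this division.

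**Figure D1:**
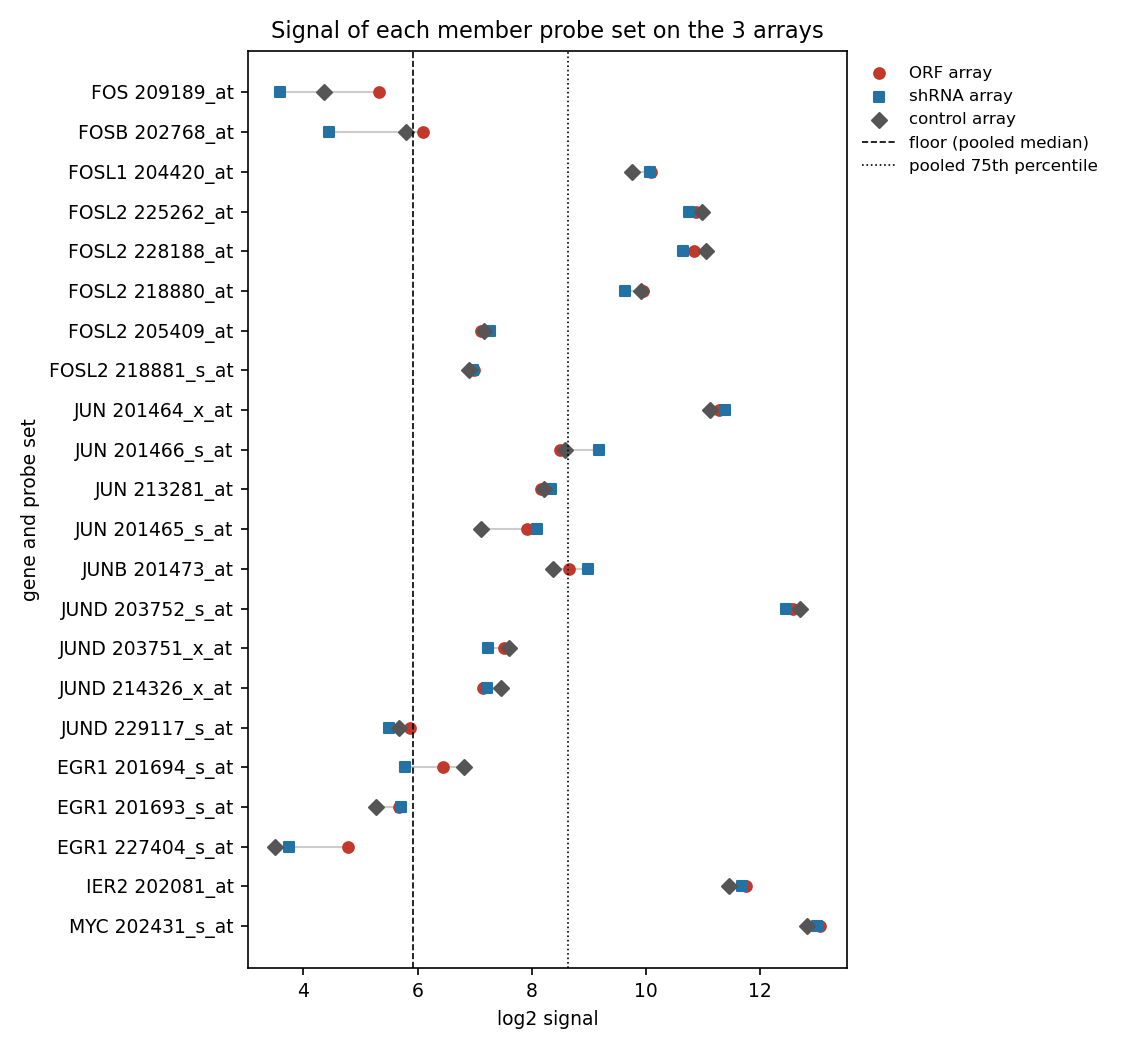
Log2 signal (x axis) of each of the 22 probe sets (rows) on the arrays labelled ORF (circles), shRNA (squares) and control (diamonds), 1 array each. The dashed line is the floor at 5.93 and the dotted line the pooled 75th percentile at 8.63. FOS lies left of the floor on all arrays, while MYC, IER2 and the brightest probe set of JUND lie far to the right.

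Differences between the arrays were small in most of the 10 genes. At 1.5-fold, the threshold used here, 0 of the 9 genes above the floor on at least 1 array were higher and 0 lower for ORF against control, where 3.04% and 2.82% of the 12664 genes above the floor were. For shRNA against control 1 was higher (JUNB) and 1 lower (EGR1), against 3.59% and 3.30% of all genes. For ORF against shRNA the counts were 0 and 0, against 2.64% and 2.68%. With 9 genes, counts of 0 or 1 are near these background shares, so they are no result about the members. FOSB entered these 9 through its ORF reading alone, so medians are given over the genes whose mean signal was above the floor. For the 8 such members the median log2 ratio was 0.20 for ORF against control (−0.00077 over all 11800 such genes), 0.21 for shRNA against control (−0.01) and 0.06 for ORF against shRNA (0.01). The first and second of these comparisons share the control array, so a high or low reading on that array moves both.

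**Figure D2:**
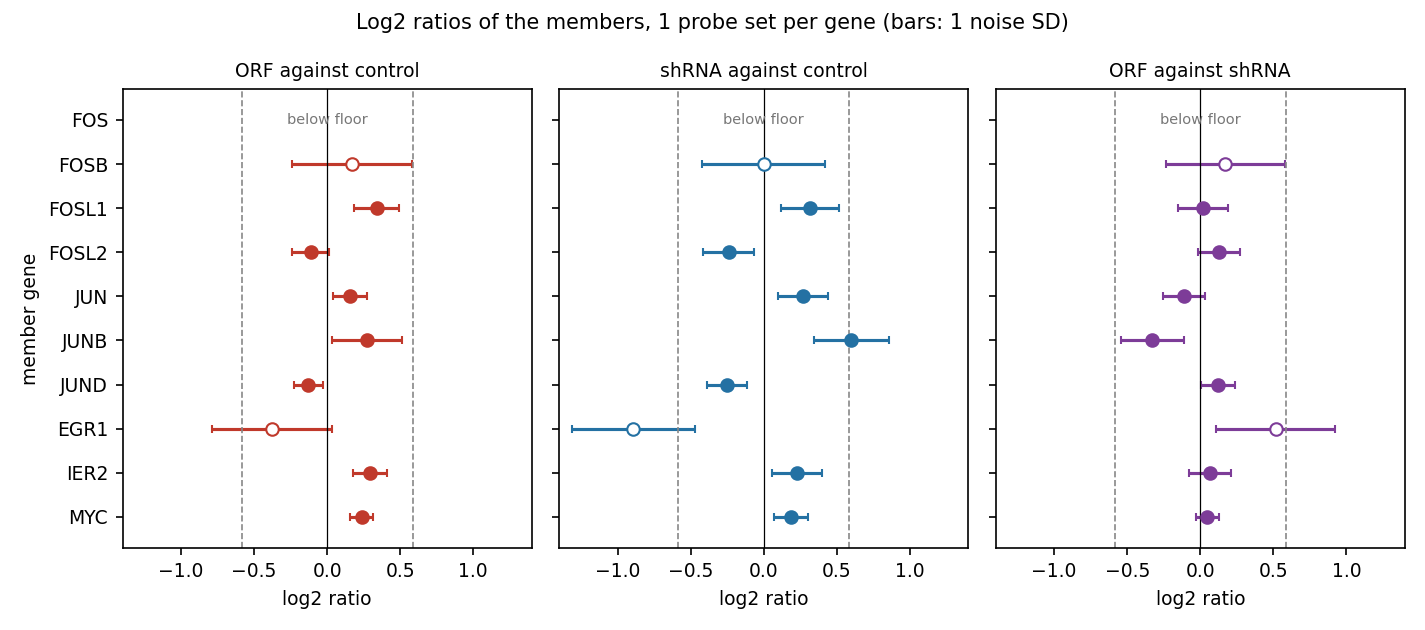
Log2 ratios (x axis) of the members, 1 probe set each, in the 3 comparisons. Bars are 1 probe-set noise SD, dashed lines mark 1.5-fold, and open points had a signal below the floor on at least 1 array. JUNB at 0.60 and EGR1 at −0.89 for shRNA against control are the points past 1.5-fold.

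A probe-set noise SD was taken from pairs of probe sets of 1 gene with similar signal. It covers differences between probe sets of 1 gene on the same arrays. Effects of RNA preparation, labelling or a whole array that these probe sets share are left out, as is the variation between cultures. More than 2 such SDs separated the ORF-labelled and control-labelled arrays for 3 of the 9 genes (FOSL1, IER2 and MYC), against 11.7% of all genes above the floor. For shRNA against control it was 2 of 9 (JUNB and EGR1), against 8.88%, and for ORF against shRNA 0 of 9, against 9.14%. Shares of 9 genes are coarse, and their difference from the background was not tested.

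In the Fos family, FOSL1 was the member that read higher on both arrays of Hsp27 vectors. FOSL1 encodes Fra-1, a Fos protein that lacks the strong activation domain of FOS and is itself induced by AP-1. Its signal was 10.10 on the ORF-labelled array, 10.08 on the shRNA-labelled array and 9.76 on the control-labelled array. The control array was the lowest and the other arrays differed by 0.02. Its log2 ratio for ORF against control was 0.34 (noise SD 0.153, 1.26-fold) and 0.32 for shRNA against control (noise SD 0.199, 1.25-fold). Of 728 genes of similar mean signal, 71 (9.75%) had an ORF against control ratio at least as large in size, and 115 (15.8%) a shRNA against control ratio.

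FOSL2, which encodes Fra-2, lay in the other direction by its brightest probe sets. Its brightest probe set, 225262_at, read 10.88 on the ORF-labelled array, 10.75 on the shRNA-labelled array and 10.99 on the control-labelled array. A second one of nearly the same signal, 228188_at, read 10.85, 10.65 and 11.06 in that order. Both were highest on the control array and lowest on the shRNA array, as the log2 ratios of −0.24 (noise SD 0.173) and −0.42 (noise SD 0.173) for shRNA against control show. For ORF against control they were −0.11 and −0.21 (noise SD 0.126 each). The third bright probe set, 218880_at, gave 0.03 for ORF against control and −0.27 for shRNA against control. The 2 dim probe sets gave 0.11 and 0.09 for shRNA against control, each within a noise SD, so 3 of 5 probe sets were below 0 in that comparison.

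FOS, the prototype of the family, had 1 probe set, which read 5.33 on the ORF-labelled array, 3.60 on the shRNA-labelled array and 4.37 on the control-labelled array. All of these lie below the floor, so no ratio is given. FOSB read 6.10, 4.45 and 5.80 in the same order, and the ORF-labelled array alone passed the floor. Without the floor its log2 ratio for ORF against shRNA would be 1.65, against 0.17 with it, and values this low have no dependable order.

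In the Jun family, JUNB stood furthest from control among the members above the floor on all arrays, by 1 probe set per gene. JUNB is a Jun protein that activates less strongly than JUN and can oppose it. Its signal was 8.65 on the ORF-labelled array, 8.98 on the shRNA-labelled array and 8.38 on the control-labelled array. The shRNA array was the highest and the control array the lowest, and linear signals were 402.9, 505.6 and 333.4. The log2 ratio was 0.60 for shRNA against control (1.52-fold, noise SD 0.259), just past the threshold of 0.58. ORF against control gave 0.27 (noise SD 0.238), and the 2 Hsp27 vectors differed by −0.33, ORF against shRNA (noise SD 0.218). Of 528 genes of similar signal, 34 (6.44%) had a shRNA against control ratio at least as large in size, 156 (29.5%) an ORF against control ratio and 109 (20.6%) an ORF against shRNA ratio. JUNB has no other probe set here that could be set beside this value.

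JUN, the founding Jun protein and a substrate of JNK, had 4 probe sets, all above the floor on 3 arrays. The brightest, 201464_x_at, read 11.28 on the ORF-labelled array, 11.39 on the shRNA-labelled array and 11.12 on the control-labelled array. In each of the 4 the shRNA array was the highest. Their log2 ratios for shRNA against control were 0.27 (noise SD 0.171), 0.59 (201466_s_at, noise SD 0.278), 0.12 (213281_at, noise SD 0.281) and 0.97 (201465_s_at, noise SD 0.315), and for ORF against shRNA they ran from −0.68 to −0.11. For ORF against control they disagreed in sign, at 0.16, −0.09, −0.05 and 0.80 in the same order. Which probe set stands for JUN thus decides whether it passes 1.5-fold against control. The name ending _x_at marks probes that can match several transcripts.

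JUND, often the most steadily expressed Jun protein and known to slow proliferation in some cells, was below control on both other arrays. Its brightest probe set, 203752_s_at, read 12.57 on the ORF-labelled array, 12.45 on the shRNA-labelled array and 12.70 on the control-labelled array. The control array was the highest. Its log2 ratio for ORF against control was −0.13 (noise SD 0.099) and −0.25 for shRNA against control (noise SD 0.139). The 3 probe sets of JUND above the floor were all below 0 in both comparisons, from −0.31 to −0.09 for ORF and from −0.37 to −0.25 for shRNA. The fourth, 229117_s_at, was at most 5.86 and lay below the floor. None of these sizes reached 1.5-fold.

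**Figure D3:**
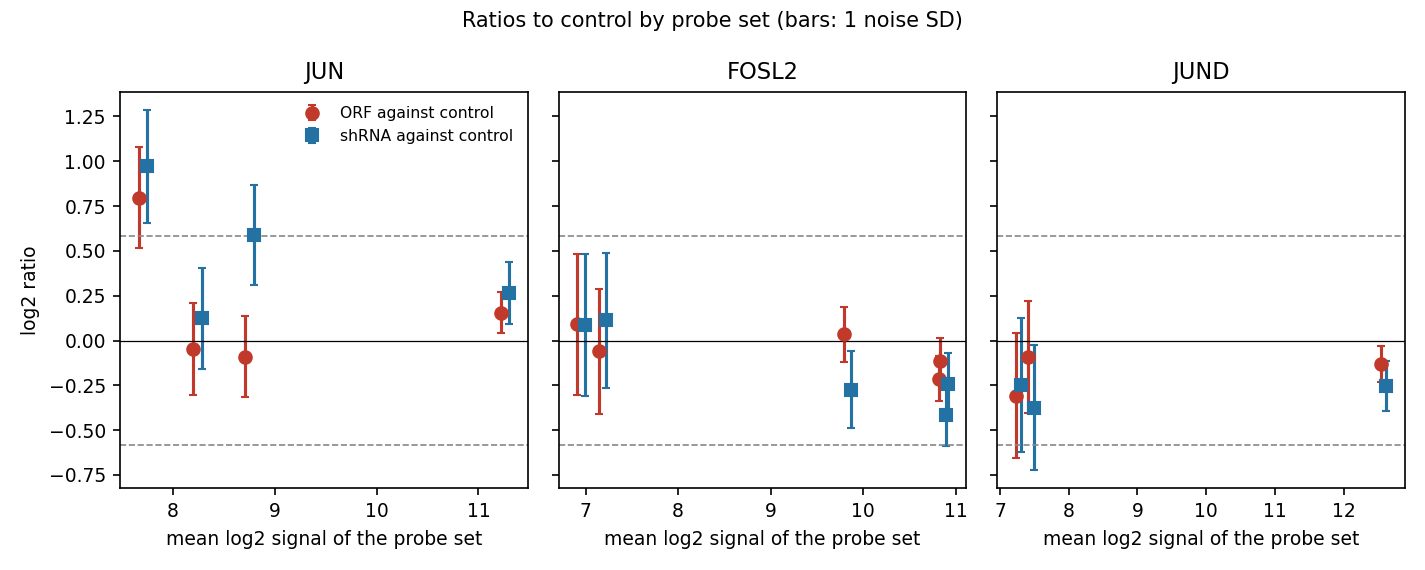
Log2 ratios to control (y axis) of each probe set of JUN, FOSL2 and JUND that was above the floor on 3 arrays, against its mean log2 signal (x axis). Circles are ORF against control, squares shRNA against control, bars 1 noise SD and dashed lines 1.5-fold. The probe sets of JUN spread from −0.09 to 0.97, and those of JUND lie below 0.

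EGR1 is a zinc finger factor known for its brief induction through serum response factor, and its message is usually scarce in cells that are not freshly stimulated. Its brightest probe set, 201694_s_at, read 6.44 on the ORF-labelled array, 5.78 on the shRNA-labelled array and 6.82 on the control-labelled array. The shRNA reading was below the floor. The log2 ratio was −0.89 for shRNA against control (noise SD 0.421) and would be −1.04 without the floor. It was −0.38 for ORF against control and 0.52 for ORF against shRNA (noise SD 0.412 and 0.408). The other probe sets, 201693_s_at and 227404_s_at, lay below the floor on every array, and their readings were lowest on the control array (5.27 and 3.51), unlike that of 201694_s_at. The low EGR1 value therefore rests on 1 dim probe set.

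IER2, a small nuclear protein induced together with FOS and EGR1, was measured well by 1 probe set. It read 11.75 on the ORF-labelled array, 11.68 on the shRNA-labelled array and 11.46 on the control-labelled array. The control array was the lowest. Its log2 ratio for ORF against control was 0.29 (1.23-fold, noise SD 0.116) and 0.23 for shRNA against control (noise SD 0.171). Of 1037 genes of similar signal, 85 (8.20%) had an ORF against control ratio at least as large in size, and 260 (25.1%) a shRNA against control ratio.

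MYC is a basic helix-loop-helix leucine zipper factor that binds DNA with MAX and drives ribosome and metabolic genes. Its 1 probe set read 13.05 on the ORF-labelled array, 13.01 on the shRNA-labelled array and 12.82 on the control-labelled array (8505, 8221 and 7220 linear). The control array was again the lowest. Its log2 ratio for ORF against control was 0.24 (noise SD 0.0801, 1.18-fold) and 0.19 for shRNA against control (noise SD 0.117). Other genes this bright leaned the opposite way: the medians of the 792 genes of similar signal were −0.06 and −0.07. Of them 36 (4.55%) had an ORF against control ratio at least as large in size as that of MYC, and 177 (22.3%) a shRNA against control ratio as large as its own. For ORF against shRNA MYC was at 0.05, within its noise SD of 0.0774.

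**Figure D4:**
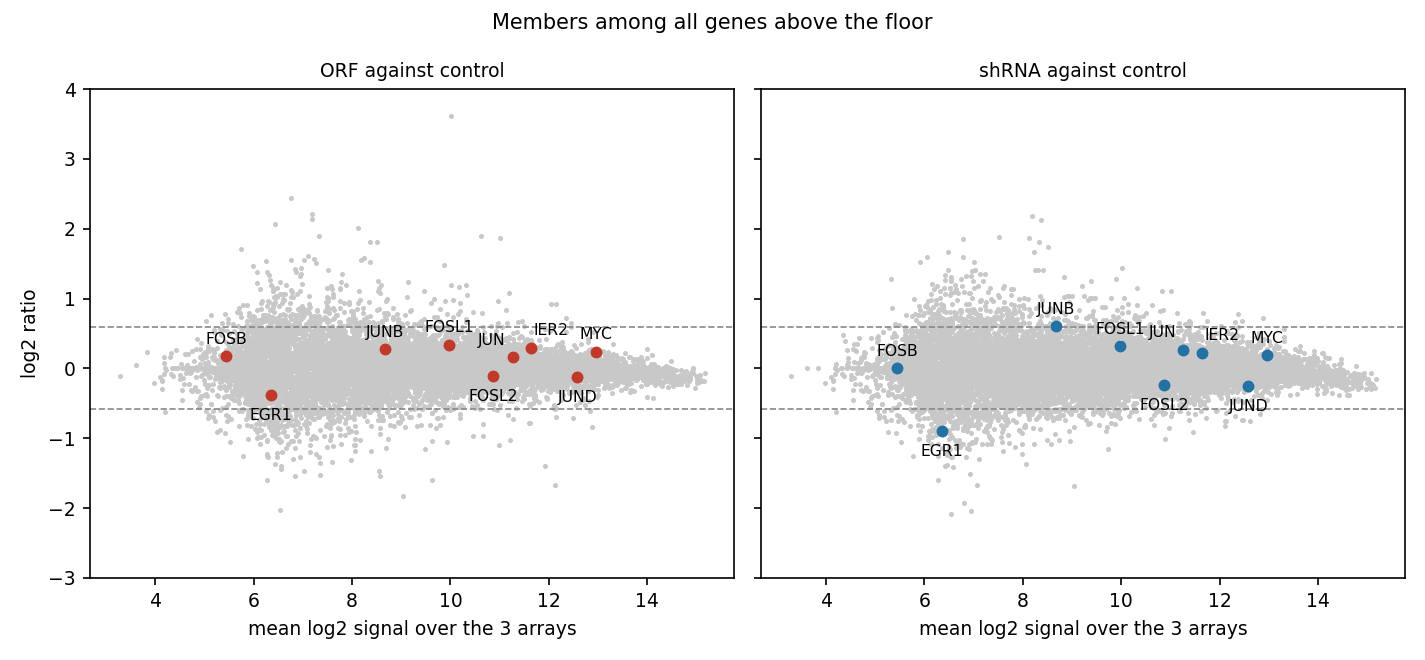
Log2 ratio (y axis) against mean log2 signal over the 3 arrays (x axis) for the 12664 genes above the floor (grey) and the members (coloured, named), for ORF against control and shRNA against control, which share the control array. Dashed lines mark 1.5-fold. JUNB at 0.60 and EGR1 at −0.89 for shRNA against control lie past the lines.

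Of 12 bZIP partners of Fos and Jun, 10 had values and 8 were above the floor. For ORF against control 1 was at least 1.5-fold higher and 0 lower, namely MAFF, a small Maf protein (10.01 with ORF, 9.74 with shRNA and 9.43 with control, log2 ratio 0.59), of whose 2 probe sets 1 had that sign. For shRNA against control 0 passed in either direction, and the highest was BATF3 at 0.52. With 3.04% and 2.82% of all genes past 1.5-fold for ORF against control and 3.59% and 3.30% for shRNA against control, counts of 0 or 1 in 8 are no result about the partners. Over the 7 with a mean signal above the floor, the medians were −0.06 for ORF against control, 0.24 for shRNA against control and −0.29 for ORF against shRNA.

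Of the upstream kinases and serum response factors, 17 had values and 0 passed 1.5-fold in any comparison, a count near the 2.64% to 3.59% of all genes in each direction. The medians were 0.04 for ORF against control, −0.02 for shRNA against control and 0.07 for ORF against shRNA. SRF, the factor that binds CArG boxes, read 8.89, 8.82 and 8.71 on the arrays labelled ORF, shRNA and control. Its partner ELK3 had the highest ratios of this list to control, 0.50 for ORF (noise SD 0.116) and 0.43 for shRNA, and the SRF coactivator MRTFA the lowest for ORF, −0.47. Of the 2 probe sets of ELK3, 2 had that sign for ORF against control but 1 for shRNA against control. For MRTFA 2 of the 3 probe sets above the floor had that sign for ORF against control.

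Other immediate early genes differed in both directions. Of 28, 26 had values and 25 were above the floor, and the medians were 0.02 for ORF against control, 0.11 for shRNA against control and −0.03 for ORF against shRNA. For ORF against control 1 was at least 1.5-fold higher, IER3, a stress-induced regulator of cell survival (11.86 with ORF, 10.93 with shRNA and 10.78 with control). The 1 lower gene was the nuclear receptor NR4A3, at −0.88 (noise SD 0.348). For shRNA against control CCN1, a secreted matrix protein and known target of SRF and YAP, was the 1 higher gene (12.59 with ORF, 13.40 with shRNA and 12.68 with control). NR4A3 (−0.68) and GEM (−0.59), both dim, were the 2 lower. For ORF against shRNA 1 was higher, IER3 at 0.93, and 3 were lower: CCN2 at −0.89, CCN1 at −0.81 and PLK2 at −0.65. These counts, 1 to 3 of 25, stand beside 2.64% to 3.59% of all genes, and the difference was not tested.

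Genes known as AP-1 targets held the highest ratios of the lists examined. Of 23, 21 had values and 15 were above the floor. For ORF against control 5 of 15 (33.3%) were at least 1.5-fold higher and 0 lower, against 3.04% and 2.82% of all genes. They were CXCL8, PTGS2, IL6, IL11 and PLAUR. CXCL8, which encodes interleukin 8, read 8.36 with ORF, 6.50 with shRNA and 5.41 with control, and its log2 ratio of 2.43 is held down by the floor. PTGS2, the inducible cyclooxygenase, read 11.58, 10.59 and 9.69 in that order. These are also well-known NF-kB targets, and the list was chosen knowing that they stood high in these data, so its count is not independent evidence of a direction. For shRNA against control 3 were higher (IL6 at 1.41, PTGS2 at 0.90 and IL11 at 0.84, by 1 of the 2 probe sets of IL11) and 0 lower, against 3.59% and 3.30% of all genes. For ORF against shRNA 2 were higher (CXCL8 at 1.86 and PTGS2 at 0.99) and 1 lower (MMP9 at −0.59, dim), against 2.64% and 2.68% of all genes. MMP1, MMP3, MMP10 and MMP13, classical AP-1 targets among the matrix metalloproteinases, were below the floor on every array. Over the 14 of the list with a mean signal above the floor, the medians were 0.29 for ORF against control, 0.29 for shRNA against control and 0.14 for ORF against shRNA.

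Of 23 genes known to follow MYC, 18 had values, all 18 were bright on average, and 0 passed 1.5-fold in any comparison, where 2.64% to 3.59% of all genes did in each direction. Their median log2 ratio was −0.04 for ORF against control and −0.08 for shRNA against control, where MYC was at 0.24 and 0.19. These medians are close to the −0.06 and −0.07 of the genes as bright as MYC. For ORF against control 6 of 18 (33.3%) were above 0, against 48.3% of all genes above the floor, and for shRNA against control 5 of 18 (27.8%), against 47.2%. The shares of all genes include dimmer genes and ratios set to 0 by the floor. Genes as bright as MYC leaned below 0, so the lower shares are no result about MYC targets. NPM1, a nucleolar chaperone, read 14.64 with ORF, 14.58 with shRNA and 14.86 with control. NCL, nucleolin, read 13.31, 13.51 and 13.12, and POLR1B, BYSL, MRTO4 and WDR43 were also above 0 against control in both comparisons. MAX, the partner of MYC, read 11.85, 11.85 and 11.83, and 0 of the 10 measured MYC partners and antagonists passed 1.5-fold in any comparison.

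**Figure D5:**
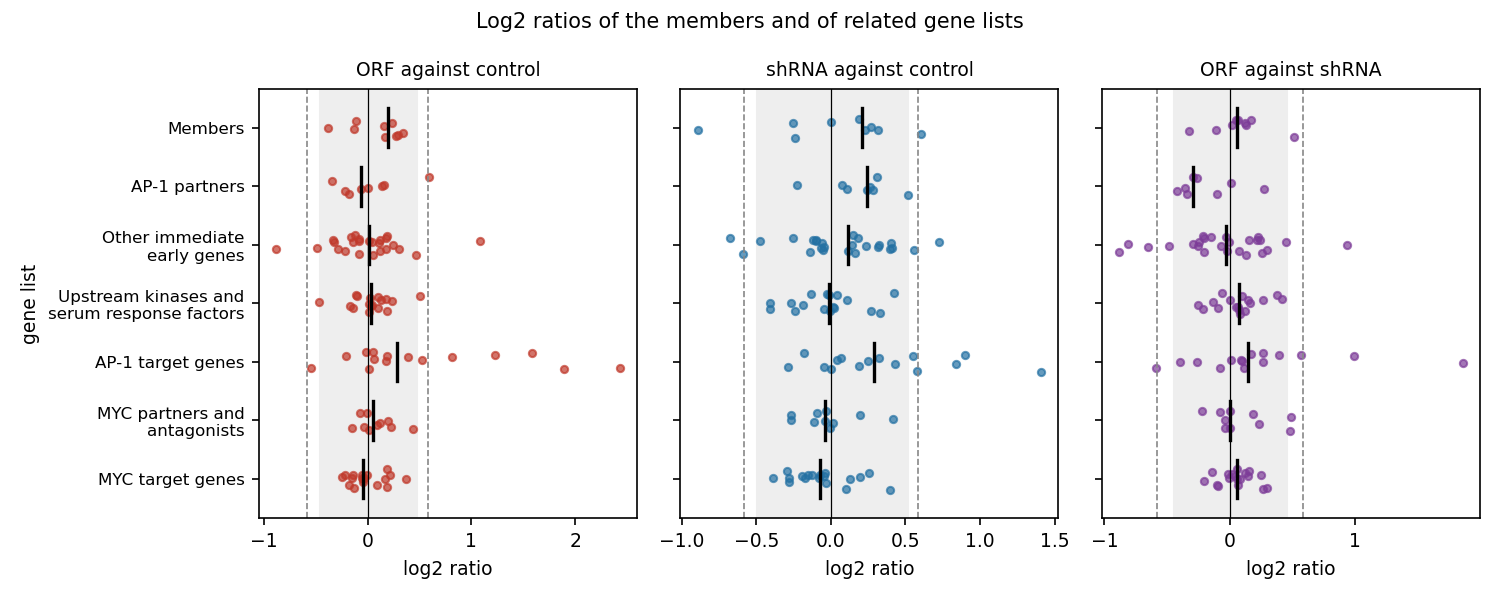
Log2 ratios (x axis) of the genes above the floor in each list (rows), for the 3 comparisons. Each point is a gene, black bars are medians over genes with a mean signal above the floor, the grey band spans the 5th to 95th percentile of all genes above the floor, and dashed lines mark 1.5-fold. The AP-1 target list reaches 2.43 for ORF against control, while MYC targets stay between −0.25 and 0.37 there.

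Likeness of pattern was measured for JUNB, the bright member with the largest ratio to control, as the distance between its pair of log2 ratios to control and those of the 7848 other genes bright on average. The nearest were ARHGAP21 (0.27 for ORF against control and 0.61 for shRNA against control, distance 0.00797), SDHAF3 (0.30 and 0.60, distance 0.029) and PLEKHA7 (0.29 and 0.63, distance 0.039). In all, 27 genes lay within a distance of 0.1. With 3 arrays such a pattern holds 2 values, and many genes share it.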

How the data were processed

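Total RNA from cells labelled HepG2 was hybridised to 3 arrays, 1 per transfection group. The authors deposited 1 log2 signal for each probe set and array, and the submitters' processing notes name MAS5. Neither a version nor detection calls were used here. That the unit is log2 follows from the values, whose powers of 2 had a 2% trimmed mean of 500.1 on each array. Signals were scaled to that equal mean and then floored at the pooled median. Differences of dim genes are understated for that reason. Gene names came from the platform annotation of GEO, in which 41097 of 54675 had 1 symbol, 1801 several and 11777 none. Of the 41097, 41043 matched RefSeq's gene table (GRCh38.p14), which was used for names. Each gene was represented by the probe set of highest mean signal. The noise SD came from 6768 pairs of probe sets of 1 gene whose mean log2 signals lay within 1 of each other, as the SD of the difference between their ratios divided by the square root of 2, in 20 bins. No p-value can be had from 1 array per group, and precision is limited by their number. Named genes were the 10 members, HSPB1, and up to 4 genes per list and comparison with the largest ratios past 1.5-fold, plus the 3 genes nearest in pattern to JUNB. Marker genes come from marker lists, and those given with values were picked after their values were seen. Further list genes named with values below that threshold (BATF3, SRF, ELK3, MRTFA, NPM1, NCL, POLR1B, BYSL, MRTO4, WDR43 and MAX), and PLAUR and the matrix metalloproteinases, were chosen after their values were seen. The count of genes beyond 2 noise SDs and the medians over genes with a mean signal above the floor were added after the values were seen. The members and lists were chosen with earlier results of these data known. The procedure was tested on simulated data, with known fold changes set in bright genes only and the same noise level for all probe sets. That test does not cover dim members such as EGR1 and FOSB. Python 3.11.15, numpy 2.4.6, pandas 2.3.3 and statsmodels 0.14.6 were used. Alternatives were quantile normalization, loess centring, equal medians, other floors, other choices of probe set and a 2-fold threshold.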

Additional observations from a re-analysis of the deposited data

How the results depend on the processing

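The count of members at least 1.5-fold higher for shRNA against control was 1, and became 0 with the floor at the 75th percentile, where JUNB was at 0.35, and 0 at a 2-fold threshold. The count lower in that comparison was 1 and became 2 without a floor, through FOSB at −1.35. It became 0 with the floor at the 75th percentile, 0 with the median over probe sets, 0 without probe sets ending in _x_at or _s_at, and 0 at 2-fold. EGR1, the gene counted, is below the higher floor, has only _s_at probe sets, stays under 2-fold, and has a median of 0 since 2 of its 3 probe sets lie below the floor. JUND and MYC also have only _x_at or _s_at probe sets, so 6 of the 9 members remained in that setting and these genes were not checked there. With the floor at the 75th percentile 7 remained. For ORF against shRNA the count higher was 0 and became 2 without a floor, through FOSB at 1.65 and EGR1 at 0.66. The counts for ORF against control stayed at 0 under every alternative run, as did the count lower for ORF against shRNA. Of 174 values of single members under the alternatives, 168 moved by at most a noise SD, and 1 turned its sign: JUN for ORF against control was −0.05 without _x_at and _s_at, against 0.16. The 6 counts of all genes, 334 to 455, ran from 582 to 749 without a floor, from 54 to 109 with the floor at the 75th percentile, from 176 to 241 with the median over probe sets and from 37 to 85 at 2-fold. With genes chosen by a mean signal above the floor, an alternative added after seeing the data, the 6 counts of members did not change, and the medians were 0.20, 0.21 and 0.06 against 0.17, 0.19 and 0.07 over the 9 genes above the floor on at least 1 array (ORF against control, shRNA against control, ORF against shRNA). No paired analysis was possible because each group has 1 array. Signal over background limits FOS, FOSB and EGR1.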
